A study of Mus musculus with 8 samples.

Results

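The fibroblast growth factor (FGF) genes examined here were 10 genes of the deposited table, taken by symbol from its 54532 genes: the ligand genes Fgf1, Fgf2, Fgf7, Fgf10, Fgf13 and Fgf21, the receptor genes Fgfr1, Fgfr2 and Fgfr3, and Klb, which encodes the coreceptor beta-klotho. They were measured by RNA sequencing in brown adipose tissue, the fat depot specialised for burning fuel as heat, from 4 mice with the genotype label TG (CLCF1-ATG) and 4 mice with the genotype label WT. CLCF1 belongs to the interleukin-6 group of cytokines. The promoter that drives the transgene, the strain, age and sex of the mice and any treatment are not stated in the labels. Libraries are called TG 1, 2, 3 and 5 and WT 1, 2, 3 and 5 after the submitters' own numbers. The comparison asked how the FGF genes of brown fat differed between the genotypes.

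FGF ligands bind receptor tyrosine kinases on the cell surface together with heparan sulfate, and the activated receptor passes its signal through adaptor proteins to the RAS, RAF and ERK kinases. Most members of the family act on neighbouring cells, FGF13 and its closest relatives stay inside the cell, and FGF21 is a hormone that needs beta-klotho beside the receptor. In fat, FGF1 is known as a target of PPAR-gamma, FGF10 as a signal from stromal cells that promotes the formation of adipocytes, and FGF21 as a hormone of cold and nutrient stress that acts on adipocytes through FGFR1 and beta-klotho.

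Between 18494022 and 20183840 reads per TG library and between 13734231 and 15751302 reads per WT library could be recovered behind the deposited values, which are FPKM (fragments per kilobase of gene and scaled by a library divisor). Reads of the mitochondrial chromosome made up 6.09% to 7.34% of the TG libraries and 24.1% to 37.5% of the WT libraries. The libraries followed their labels, with Clcf1 at 78.7 to 89.9 FPKM in TG and at 0.434 to 3.40 FPKM in WT. The table gives one value per gene, so transgene and native Clcf1 are not separated. Of 8 brown adipocyte markers 6 fell, with sums of 597 to 998 FPKM in TG and 6510 to 9151 FPKM in WT, and Ucp1 was at 39.7 to 135 FPKM in TG and at 905 to 1762 FPKM in WT. The keratin genes Krt5 and Krt14 of epithelium were at 0 in all 8 libraries. Of the other marker lists, 7 of 8 endothelial genes fell (1 was not tested) and their summed level was 22.5 to 42.0 FPKM in TG and 128 to 283 FPKM in WT. Among adipocyte markers 5 of 7 rose, with sums of 7824 to 10855 FPKM in TG and 4470 to 5857 FPKM in WT. Macrophage markers rose in 4 of 6, with sums of 109 to 136 FPKM in TG and 61.9 to 123 FPKM in WT. Cd68 of that list went the other way without passing, at 8.65 ± 1.92 FPKM in TG and 11.6 ± 1.57 FPKM in WT (SD, n = 4 each). Smooth muscle markers fell in 3 of 3 tested, with sums of 1.54 to 5.32 FPKM in TG and 7.52 to 19.7 FPKM in WT. Of these 3, Cnn1 and Myh11 passed the filter given below only through their WT libraries, so that a difference was built into their passing. TG 5 and WT 2 stood apart in skeletal muscle genes: Acta1 was at 588 FPKM in TG 5 and at 43.8 to 74.0 FPKM in the other TG libraries, and at 1097 FPKM in WT 2 and 8.99 to 77.5 FPKM in the other WT libraries. The marker counts above stand beside 44.1% of all tested genes called, 22.3% higher and 21.8% lower. In bulk tissue, fewer cells of a type and less RNA per cell cannot be told apart.

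Tests were made with limma on log2(FPKM + 1), which makes fold changes of weakly expressed genes look smaller than they are, over the 12508 genes that reached 0.5 FPKM in 4 or more libraries. Of these 44.1% passed an adjusted p of 0.05, 22.3% higher and 21.8% lower in TG. The filter kept 8 of the 10 FGF genes. Fgfr2 and Fgf13 passed it only through their TG libraries, so that a difference was built into their passing, and Fgf1 reached 0.5 FPKM in all 4 WT but only 2 TG libraries. Fgf21 and Fgfr3 stayed below it. With division by all recovered reads, mitochondrial ones included, 5536 genes were higher and 1442 lower, so that 79.3% of the calls were higher against 50.6% above, and the median log2 change of all genes moved to 0.32 against 0.01. Among the 8 tested genes Fgf10, Fgf13, Fgfr1 and Fgfr2 rose, Fgf1 fell, and Fgf2, Fgf7 and Klb did not pass. The libraries of the genotypes did not overlap in these 5 called genes, TG lying above in 4 and below in 1. The background over all tested genes was 42.6% without overlap, 22.1% with TG above and 20.5% with TG below. Division by all recovered reads also called Fgf2, Fgf7 and Klb higher. Without TG 5 and WT 2 the same 5 genes were called in the same directions, and Fgf2, Fgf7 and Klb were not.

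Promoter windows, 250 bases before to 50 bases after the annotated start, were found in the RefSeq table of build GRCm38.p6 for 8 of the 10 genes. The windows of Fgf10 and Fgfr2 are shown because these genes had the largest ratios of mean FPKM among those that rose, and that of Fgf21 because its regulatory sites are well known. Capitals mark matches to any of 5 motifs searched on both strands.
Fgf10 (chr13:118714449-118714748, plus strand): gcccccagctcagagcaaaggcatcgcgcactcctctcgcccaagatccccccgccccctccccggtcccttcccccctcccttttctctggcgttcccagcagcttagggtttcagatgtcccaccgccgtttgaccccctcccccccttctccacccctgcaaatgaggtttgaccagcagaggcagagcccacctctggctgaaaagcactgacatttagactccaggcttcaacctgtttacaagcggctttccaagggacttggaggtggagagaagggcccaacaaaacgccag
Fgfr2 (chr7:130266759-130267058, minus strand): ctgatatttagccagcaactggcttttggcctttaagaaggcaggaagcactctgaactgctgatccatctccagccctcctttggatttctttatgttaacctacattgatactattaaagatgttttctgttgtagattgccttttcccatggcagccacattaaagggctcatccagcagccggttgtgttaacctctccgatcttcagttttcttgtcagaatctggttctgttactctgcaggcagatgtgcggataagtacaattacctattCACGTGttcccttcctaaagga
Fgf21 (chr7:45615441-45615740, minus strand): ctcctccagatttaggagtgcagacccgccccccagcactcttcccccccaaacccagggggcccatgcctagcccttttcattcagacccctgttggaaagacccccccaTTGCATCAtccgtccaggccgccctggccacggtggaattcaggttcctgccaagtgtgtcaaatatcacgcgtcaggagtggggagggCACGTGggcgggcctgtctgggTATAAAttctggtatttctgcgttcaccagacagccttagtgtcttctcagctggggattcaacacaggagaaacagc
The motifs were the STAT site TTCNNNGAA, found in 8.30% of all 32851 windows of the table, the amino acid response element TTGCATCA bound by ATF4 (0.895%), the E-box CACGTG (7.15%), the TATA box TATAAA (13.6%) and the nuclear receptor half-site AGGTCA (16.3%). None of them was found in the Fgf10 window. In the Fgfr2 window the capitals mark an E-box, and in the Fgf21 window, in reading order, an amino acid response element, an E-box and a TATA box, which do not overlap. The STAT motif was in none of the 12 windows of these 8 genes. A match describes letters of the sequence and does not show that a factor binds there.

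Fgf10 rose, with a ratio of mean FPKM close to that of Fgfr2. Which FGF gene had the largest log2 rise varied with the setting among Fgf10, Fgfr1 and Fgfr2. Fgf10 (ENSMUSG00000021732, chromosome 13, 118669791 to 118792115, plus strand, mm10) stood at 3.23, 4.01, 2.75 and 3.59 FPKM in TG 1, 2, 3 and 5, against 0.701, 0.533, 0.670 and 0.626 FPKM in WT 1, 2, 3 and 5. The groups were far apart, and the spread was small in both, the coefficient of variation being 15.8% in TG and 11.6% in WT. The means were 3.40 ± 0.537 FPKM in TG and 0.633 ± 0.0731 FPKM in WT (SD, n = 4 each), a ratio of 5.37. The log2 change was 1.42 (SE 0.115, limma adjusted p = 1.53e-05). The table's gene start lies upstream of the RefSeq start used for the window shown above. The antisense gene Gm16263, which shares 123 exonic bases with Fgf10 on the opposite strand, had 17, 4, 28 and 7 reads in TG 1, 2, 3 and 5 and 0 reads in the 4 WT libraries, at least 10.1-fold higher in TG than the level of 3 reads over the WT group. Whether counting used the strand is not stated in the labels, so reads in the shared bases cannot be assigned, but Fgf10 itself had 1413 reads over the TG libraries and 145 over the WT libraries. Stromal and preadipocyte markers, the cells FGF10 is known from, did not move in one direction. Of 10, 2 rose, 3 fell and 5 did not pass, Pdgfra being lower (1.44 ± 0.518 FPKM in TG and 2.50 ± 0.556 FPKM in WT; SD, n = 4 each), and their summed level was 255 to 328 FPKM in TG and 217 to 399 FPKM in WT. Their part in the Fgf10 values was not tested.

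Fgf1 was the FGF gene that fell. Fgf1 (ENSMUSG00000036585, chromosome 18, 38838673 to 38929404, minus strand) had 0.433, 0.376, 0.697 and 0.582 FPKM in TG 1, 2, 3 and 5, against 3.94, 3.74, 4.32 and 1.75 FPKM in WT 1, 2, 3 and 5. WT 5 was well below the other WT libraries, yet still above each TG library. The means were 0.522 ± 0.145 FPKM in TG and 3.44 ± 1.15 FPKM in WT (SD, n = 4 each), a ratio of WT over TG of 6.59. The log2 change was -1.50 (SE 0.201, limma adjusted p = 0.000307). The ratio of Fgf10 to Fgf1 FPKM within a library, which no scaling between libraries can change, ran from 3.95 to 10.7 in TG and from 0.142 to 0.358 in WT. The brown adipocyte markers given above fell as well, and their part in the Fgf1 values was not tested. Pparg, which encodes PPAR-gamma, stood at 49.3 ± 4.05 FPKM in TG and 50.5 ± 10.6 FPKM in WT (SD, n = 4 each; limma adjusted p = 0.947).

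**Figure D1:**
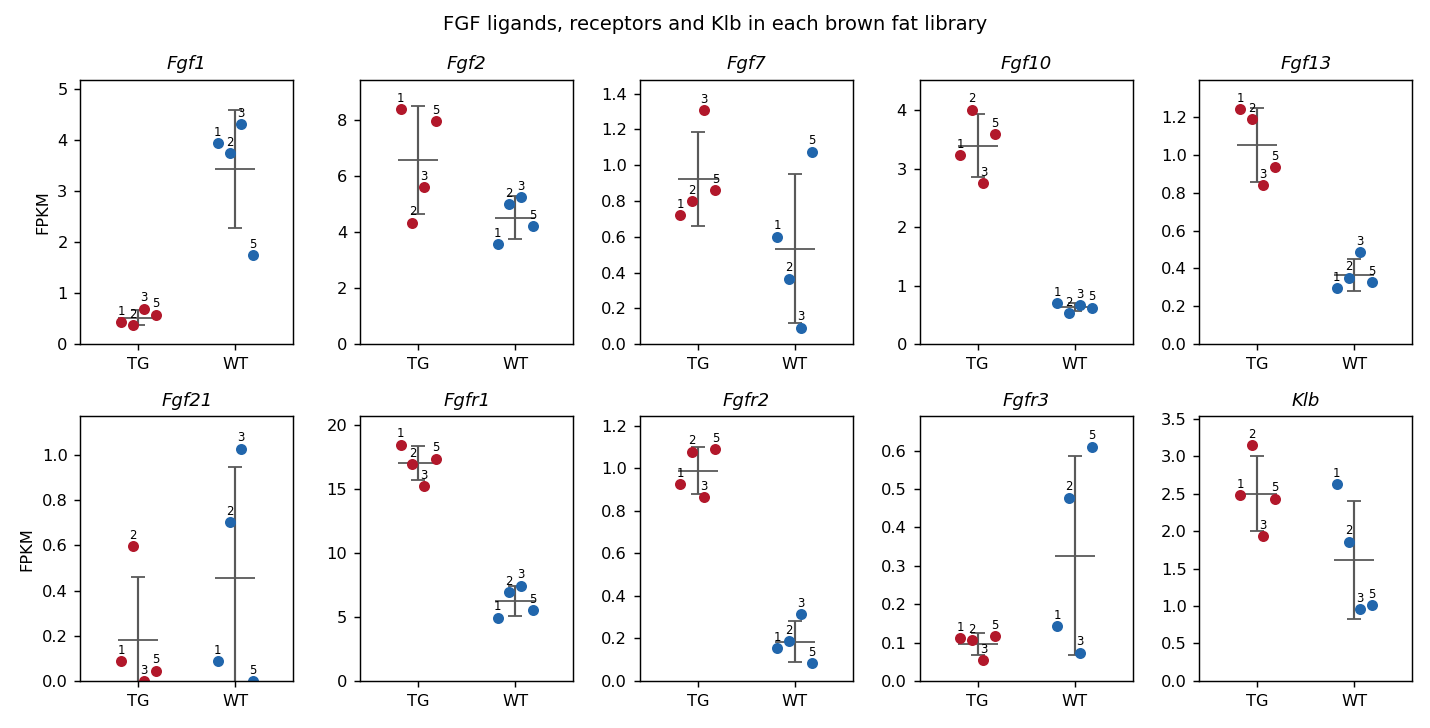
FPKM of the 10 FGF genes in each library, with a panel per gene, TG in red at the left and WT in blue at the right, library numbers beside the points, and bars for mean ± SD (n = 4 each; bars are cut at 0). The TG points of Fgf10, Fgf13, Fgfr1 and Fgfr2 lie wholly above the WT points and those of Fgf1 wholly below, while the other 5 genes overlap between the groups.

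Fgf2 and Fgf7 did not pass the test. Fgf2 (chromosome 3, 37348346 to 37410108), a ligand made in many tissues, had 8.39, 4.34, 5.60 and 7.95 FPKM in TG 1, 2, 3 and 5, against 3.57, 5.01, 5.26 and 4.21 FPKM in WT 1, 2, 3 and 5. TG 2 lay within the WT range and the other 3 TG libraries above it. The log2 change of Fgf2 was 0.43 (SE 0.192, limma adjusted p = 0.0958). Without TG 2 the change was 0.59 and the adjusted p = 0.0265, with adjusted p from 0.0108 to 0.235 under the settings tried. Nudt6, which lies on the opposite strand and shares 640 exonic bases with Fgf2, stood at 1.99 ± 0.314 FPKM in TG and 2.57 ± 1.37 FPKM in WT (SD, n = 4 each; limma adjusted p = 0.517), and reads in those bases cannot be told apart. Fgf7 (chromosome 2, 126034658 to 126091185), the closest relative of Fgf10 among these genes, had 0.723, 0.800, 1.31 and 0.860 FPKM in TG 1, 2, 3 and 5, against 0.601, 0.366, 0.0926 and 1.08 FPKM in WT 1, 2, 3 and 5. These values rest on 55 to 97 reads per TG library and 4 to 40 reads per WT library. WT 5 was inside the TG range and the other 3 WT libraries below it. The log2 change of Fgf7 was 0.36 (SE 0.193, limma adjusted p = 0.163), and without WT 5 it was 0.51 with an adjusted p = 0.0314, the settings tried giving 0.0257 to 0.371.

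Fgf13 rose from a low level. Fgf13 (chromosome X, 59062145 to 59568071, minus strand) encodes an intracellular FGF that binds sodium channels and is not secreted. It had 1.24, 1.19, 0.839 and 0.934 FPKM in TG 1, 2, 3 and 5, against 0.296, 0.351, 0.487 and 0.326 FPKM in WT 1, 2, 3 and 5. The lowest TG library stood above the highest WT library. The means were 1.05 ± 0.195 FPKM in TG and 0.365 ± 0.0843 FPKM in WT (SD, n = 4 each), and its log2 change was 0.58 (SE 0.109, limma adjusted p = 0.00211). As given above, Fgf13 passed the filter only through its TG libraries, so that a difference was built into its passing. Its tested intracellular relatives, Fgf11 and Fgf14, were also called higher, beside 22.3% of all tested genes. Fgf14 reached 0.5 FPKM in all 4 TG but only 1 WT library, so that its passing the filter already favoured a rise. Fgf11 stood at 3.61 ± 0.629 FPKM in TG and 1.55 ± 0.707 FPKM in WT (log2 change 0.88, limma adjusted p = 0.00422), and Fgf14 at 1.03 ± 0.0267 FPKM in TG and 0.354 ± 0.251 FPKM in WT (log2 change 0.60, limma adjusted p = 0.00594; SD, n = 4 each). The remaining one, Fgf12, had a mean of 0 FPKM in TG and 0.0368 FPKM in WT and was not tested. Schwann cell markers, given because these genes are known from neurons and their surroundings, gave 0 of 2 tested genes called, with a summed level of 5.31 to 7.32 FPKM in TG and 6.91 to 7.75 FPKM in WT, and their part in these values was not tested.

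Fgf21 was near the limit of detection. Fgf21 (chromosome 7, 45613886 to 45615490, minus strand), the hormone whose promoter window is shown above, had 2, 12, 0 and 1 reads in TG 1, 2, 3 and 5, against 1, 9, 13 and 0 reads in WT 1, 2, 3 and 5. In FPKM these were 0.0882, 0.596, 0 and 0.0459 in the TG libraries and 0.0893, 0.703, 1.03 and 0 in the WT libraries. Each group held libraries at or near 0 beside higher ones, so the coefficient of variation was 152% in TG and 108% in WT. With no filter on low values, limma gave an adjusted p = 0.530 for Fgf21, and a difference between the genotypes was not detectable at this depth.

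Fgfr1 was the most abundant of the 4 kinase receptors and rose. Fgfr1 (ENSMUSG00000031565, chromosome 8, 25513654 to 25575718, plus strand) had 18.5, 17.0, 15.3 and 17.4 FPKM in TG 1, 2, 3 and 5, against 4.96, 6.95, 7.46 and 5.54 FPKM in WT 1, 2, 3 and 5. The lowest TG library had more than the highest WT library, at 3445 and 979 reads. The means were 17.0 ± 1.34 FPKM in TG and 6.23 ± 1.17 FPKM in WT (SD, n = 4 each), a ratio of 2.74, and the log2 change was 1.33 (SE 0.131, limma adjusted p = 4.84e-05). Of the adipocyte markers 5 of 7 rose, as given above. The part of the adipocyte markers in the Fgfr1 values was not tested.

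Fgfr2, the receptor that in its epithelial splice form binds FGF10 and FGF7, also rose. Fgfr2 (ENSMUSG00000030849, chromosome 7, 130162451 to 133123350, minus strand) had 0.926, 1.08, 0.864 and 1.09 FPKM in TG 1, 2, 3 and 5, against 0.156, 0.187, 0.313 and 0.0846 FPKM in WT 1, 2, 3 and 5. All TG libraries were above all WT libraries. The reads behind them numbered 204 to 258 per TG library and 10 to 43 per WT library. The means were 0.990 ± 0.112 FPKM in TG and 0.185 ± 0.0955 FPKM in WT (SD, n = 4 each), a ratio of 5.34, while the log2 change on the scale with a pseudocount was 0.75 (SE 0.104, limma adjusted p = 0.000389). On the minus strand, the annotated gene start at 133123350 lies far upstream of the promoter window shown above. The table gives one value per gene, so the splice forms of Fgfr2 are not separated. Its annotated span shares 314 exonic bases with Ctbp2 on the same strand, which had 2.69 ± 0.252 FPKM in TG and 3.21 ± 0.462 FPKM in WT (SD, n = 4 each; the groups overlapped). Epithelial markers, the cells in which that splice form is known, were at sums of 0 to 0.116 FPKM in TG and 0 to 0.173 FPKM in WT.

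Fgfr3 was low in every TG library and uneven in WT. Fgfr3 (chromosome 5, 33721674 to 33737068) had 0.111, 0.106, 0.0550 and 0.116 FPKM in TG 1, 2, 3 and 5, against 0.142, 0.478, 0.0736 and 0.610 FPKM in WT 1, 2, 3 and 5. WT 2 and WT 5 stood apart with 46 and 50 reads, and WT 3, with 7 reads, lay inside the TG range of FPKM. With no filter on low values limma gave an adjusted p = 0.249 for Fgfr3. The other classical receptor, Fgfr4, had 2 reads over the TG libraries and 1 over the WT libraries.

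Klb did not pass the test. Klb (chromosome 5, 65348314 to 65384007), the coreceptor that FGF21 needs, had 2.48, 3.16, 1.93 and 2.44 FPKM in TG 1, 2, 3 and 5, against 2.63, 1.86, 0.959 and 1.02 FPKM in WT 1, 2, 3 and 5. WT 1 lay within the TG range and the other 3 WT libraries below it. The means were 2.50 ± 0.502 FPKM in TG and 1.62 ± 0.792 FPKM in WT (SD, n = 4 each), and its log2 change was 0.46 (SE 0.207, limma adjusted p = 0.101). Without WT 1 the change was 0.63 and the adjusted p = 0.0183, and limma's voom on the recovered reads also called Klb higher (adjusted p = 0.0446), the settings tried giving 0.0135 to 0.230. The ratio of Klb to Fgfr1 FPKM within a library was 0.134, 0.186, 0.127 and 0.140 in TG 1, 2, 3 and 5, against 0.530, 0.268, 0.129 and 0.184 in WT 1, 2, 3 and 5. The groups overlapped in this ratio, with 2 WT libraries above the TG range.

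**Figure D2:**
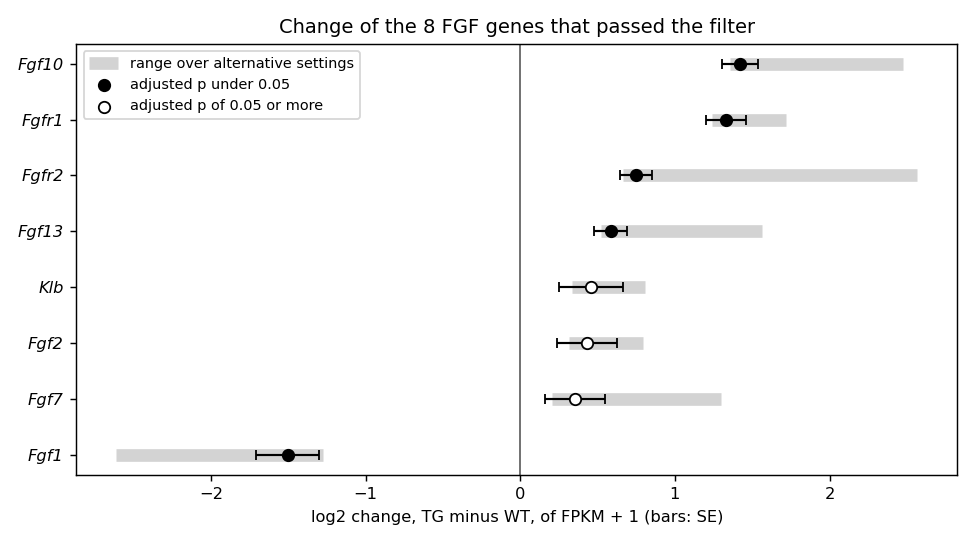
Log2 change, TG minus WT, of the 8 FGF genes that passed the filter, with bars for the SE, filled points for an adjusted p under 0.05 and grey bands for the range over the alternative settings, some of which use another pseudocount or log2 counts. Fgf10, Fgfr1, Fgfr2 and Fgf13 are filled on the right and Fgf1 is filled on the left, and no band reaches 0.

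The order of levels differed between the genotypes, as described here in FPKM, which allows for gene length. In TG the means ran from Fgfr1 (17.0) through Fgf2 (6.57), Fgf10 (3.40), Klb (2.50), Fgf13 (1.05), Fgfr2 (0.990), Fgf7 (0.922), Fgf1 (0.522) and Fgf21 (0.182) down to Fgfr3 (0.0969). In WT they ran from Fgfr1 (6.23) through Fgf2 (4.51), Fgf1 (3.44), Klb (1.62), Fgf10 (0.633), Fgf7 (0.534), Fgf21 (0.455), Fgf13 (0.365) and Fgfr3 (0.326) down to Fgfr2 (0.185). In TG neighbouring genes separated without overlap between Fgfr1 and Fgf2, Fgf2 and Fgf10, Klb and Fgf13, and Fgf7 and Fgf1. In WT they did so only between Klb and Fgf10, and all other WT neighbours overlapped.

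The make-up of the ligand and receptor transcripts shows the same values without any scaling between libraries, and is given as a description with no test. Of the summed FPKM of Fgf1, Fgf2, Fgf7 and Fgf10, Fgf10 made up 25.3% to 42.1% in TG and 5.52% to 8.18% in WT, and Fgf1 made up 3.39% to 6.73% in TG and 22.8% to 44.8% in WT. Fgf2 was the largest of the 4 in every library but WT 1, at 45.5% to 65.7% in TG and 40.5% to 55.0% in WT. Of the summed FPKM of Fgfr1 to Fgfr4, Fgfr1 held 93.5% to 94.6% in TG and 88.9% to 94.8% in WT. The rest was divided differently, Fgfr2 having 4.74% to 5.94% in TG and 1.36% to 3.98% in WT, and Fgfr3 having 0.340% to 0.622% in TG and 0.935% to 9.79% in WT.

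**Figure D3:**
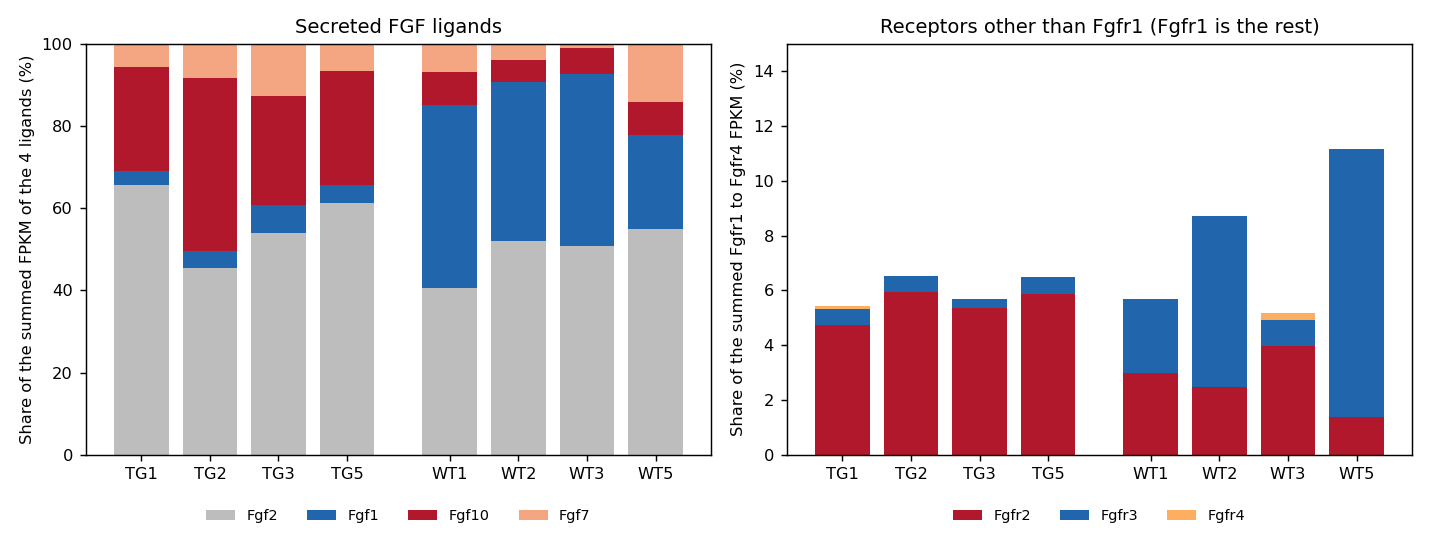
Left, share of each ligand in the summed FPKM of Fgf1, Fgf2, Fgf7 and Fgf10 per library. Right, share of Fgfr2, Fgfr3 and Fgfr4 in the summed FPKM of Fgfr1 to Fgfr4, on an axis that ends at 15% because Fgfr1 takes the rest; the TG libraries stand left of the WT libraries in both, with Fgf10 at 25.3% or more in TG and 8.18% or less in WT.

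Other parts of the pathway were read from 6 lists beside a median log2 change of 0.01 over all tested genes. Among the other 16 ligands 3 passed the filter, of which Fgf11 and Fgf14, given above, rose and Fgf18 did not pass, while 6 ligands had no reads in any library. Among other receptors, Fgfrl1, a receptor without a kinase domain, had 85.8, 102, 83.7 and 86.3 FPKM in TG 1, 2, 3 and 5, against 29.7, 52.7, 46.6 and 25.3 FPKM in WT 1, 2, 3 and 5. It was above the summed level of the 4 kinase receptors in every library, and its log2 change was 1.25 (SE 0.218, limma adjusted p = 0.00145). Kl, the coreceptor of FGF23, had 2 reads over the TG libraries and 0 over the WT libraries.

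Genes that carry, build or trim the heparan sulfate on which FGFs are held were called about as often as all tested genes (44.1%, 22.3% higher and 21.8% lower). Among 18 tested genes, 7 rose and 1 fell, and the other 10 missed the threshold; the median log2 change was 0.26. Sulf2, a sulfatase that removes sulfate groups from heparan sulfate outside the cell, had 25.6, 26.8, 20.1 and 23.0 FPKM in TG 1, 2, 3 and 5, against 5.32, 7.96, 8.72 and 5.33 FPKM in WT 1, 2, 3 and 5. Its log2 change was 1.69 (SE 0.168, limma adjusted p = 5.24e-05). Gpc4, a glypican core protein, stood at 11.2 ± 0.802 FPKM in TG and 4.09 ± 0.480 FPKM in WT (SD, n = 4 each; log2 change 1.26). Ext2, a chain polymerase, and Hs2st1, a sulfotransferase, rose by 0.62 and 0.72 on the log2 scale. The gene that fell was Sdc4, a syndecan core protein, named after its values were seen, with 28.1 ± 12.6 FPKM in TG and 101 ± 66.2 FPKM in WT (SD, n = 4 each; log2 change -1.70, limma adjusted p = 0.00946). Without TG 1 the list had 3 genes lower, and without WT 1 it had 2.

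Adaptors and kinases of the ERK cascade moved in both directions, in shares near those of all tested genes (22.3% higher and 21.8% lower). Among 22 genes, 7 rose and 4 fell, and the other 11 missed the threshold; the median log2 change was 0.14. Hras, which encodes a RAS protein, stood at 12.4 ± 1.41 FPKM in TG and at 24.8 ± 1.33 FPKM in WT (SD, n = 4 each), and its log2 change was -0.94 (limma adjusted p = 9.41e-05). Map2k2, which encodes the ERK kinase MEK2, fell by 0.77 on the log2 scale, and Shc1, an adaptor, rose by 0.94. Mapk3, which encodes an ERK kinase, stood at 39.0 ± 1.49 FPKM in TG and at 43.4 ± 2.20 FPKM in WT (SD, n = 4 each). It did not pass, and neither did Frs2, the docking protein of FGF receptors. Without TG 5 and WT 2, which stood apart in skeletal muscle genes, the counts were 3 rose and 3 fell, and with division by all recovered reads 14 rose and 3 fell.

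Of the feedback inhibitors of the cascade, Dusp4, Dusp5, Dusp6 and Spred1 fell. Among 9 tested genes, 4 fell and 0 rose, and the other 5 missed the threshold, a share called near the 44.1% of all tested genes (21.8% lower). The median log2 change was -0.57. The list also held Flrt2, which is not an established inhibitor (log2 change 0.22, limma adjusted p = 0.199). The ERK phosphatase gene Dusp6 had 4.65, 5.26, 5.14 and 4.90 FPKM in TG 1, 2, 3 and 5, against 8.51, 9.35, 12.9 and 9.40 FPKM in WT 1, 2, 3 and 5, and its log2 change was -0.87 (SE 0.128, limma adjusted p = 0.000543). Dusp5, another ERK phosphatase, had 1.00, 0.477, 0.389 and 0.617 FPKM in TG 1, 2, 3 and 5, against 2.40, 7.78, 11.9 and 8.55 FPKM in WT 1, 2, 3 and 5 (log2 change -2.28, limma adjusted p = 0.000726). The groups did not overlap in either gene. Dusp4 and Spred1, an inhibitor of RAF activation, fell by 1.82 and 0.85 on the log2 scale. Leaving out WT 1 raised the count to 7 of 9 lower. With division by all recovered reads 3 fell and 1 rose, the latter being Flrt2 (limma adjusted p = 0.0392). Spred1 was no longer called with that division (limma adjusted p = 0.0540, the settings tried giving 0.000437 to 0.0540).

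Of the transcription factor and early response genes that follow ERK activity, Fosl1 and Ier3 fell. Among 6 tested genes, 2 fell and 0 rose, and the other 4 missed the threshold, beside 44.1% of all tested genes called and 21.8% called lower; the median log2 change was -1.12. Fosl1 had 4.99, 0.360, 0.692 and 2.86 FPKM in TG 1, 2, 3 and 5, against 6.07, 19.7, 40.3 and 21.4 FPKM in WT 1, 2, 3 and 5 (log2 change -2.83, limma adjusted p = 0.00363). Ier3 fell by 1.61 on the log2 scale, although its TG range of 3.55 to 9.87 FPKM overlapped with the WT range of 9.76 to 39.4 FPKM. Etv5, a textbook target of FGF signalling, stood at 1.07 ± 0.279 FPKM in TG and 0.902 ± 0.436 FPKM in WT (SD, n = 4 each; limma adjusted p = 0.560). In WT the lowest library of Dusp4, Dusp5, Fosl1, Ier3 and Sdc4 was WT 1 and the highest WT 3. Leaving out WT 1 gave 4 of the 6 genes as lower, and leaving out TG 1 gave 3. Endothelial markers, given above, were lower in TG as well. So were neutrophil markers, of which 4 of 6 fell and 2 were not tested, with a summed level of 2.11 to 26.5 FPKM in TG and 13.1 to 398 FPKM in WT. Within WT, S100a8 (4.65 and 125 FPKM), S100a9 (6.34 and 242) and Retnlg (0.859 and 16.1) were likewise lowest in WT 1 and highest in WT 3. Csf3r was lowest in WT 1 and highest in WT 5. The part of either marker list in the values of the ERK-responsive genes, Dusp4, Dusp5 and Sdc4 was not tested.

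**Figure D4:**
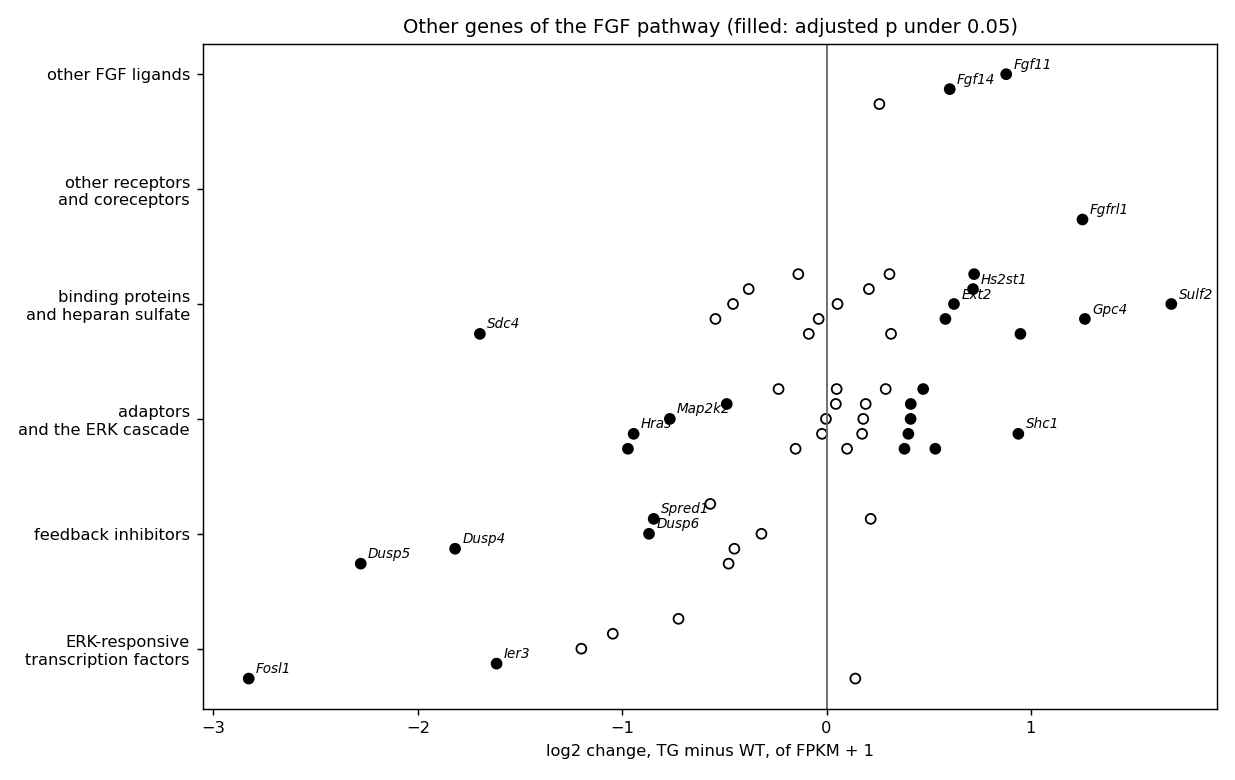
Log2 change, TG minus WT, of the other tested FGF pathway genes, with a row of points per list and filled points for an adjusted p under 0.05. The filled points of the feedback inhibitors and the ERK-responsive genes all lie left of 0, those of the receptors and ligands right of 0, and those of the ERK cascade on both sides.

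The genes whose pattern over the 8 libraries was most like that of Fgf10, by Pearson correlation of log2(FPKM + 1) among 10799 protein-coding genes, were Maged1 (r = 0.997), Wscd2 (0.997), Wnt5a (0.996), Slc1a3 (0.995) and Cep41 (0.995). Wnt5a, a secreted WNT ligand, had 1.60 ± 0.117 FPKM in TG and 0.593 ± 0.0225 FPKM in WT (SD, n = 4 each). Among those most like Fgf1 were Mtch1 (r = 0.995), Eci1 (0.994), Ndufs8 (0.994) and March2 (0.994). Ndufs8, a subunit gene of respiratory complex I, averaged 137 FPKM in TG and 411 FPKM in WT, and Eci1, an enzyme of fatty acid oxidation, had 198 ± 20.9 FPKM in TG and 481 ± 99.3 FPKM in WT (SD, n = 4 each). These correlations describe 8 libraries that fall into 2 genotypes, so any gene that separates them cleanly scores high.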

How the data were processed

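RNA of 4 TG and 4 WT mice was sequenced, with 4 animals per group by the series' design text, so each library was taken as 1 mouse. The authors deposited FPKM per gene and library, with gene name, position and length. The submitters' processing notes name bcl2fastq, HISAT2 2.0.5, featureCounts 1.5.0-p3 and mm10; no annotation release, strand setting or library divisor is stated. Multiplying FPKM by length gave whole multiples of one step per library (largest distance from a whole number 9.08e-09), and dividing by that step recovered the reads. They came to 0.822 to 0.883 of the implied divisor in TG and 1.02 to 1.22 in WT. Intervals were not computed; read numbers carry counting error, and a floor is 3 reads over a group.

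The test was limma's eBayes with an intensity trend (version 3.58.1, R 4.3.3, two-sided, Benjamini-Hochberg over all 12508 tested genes) on log2(FPKM + 1). The procedure was tested on simulated data, which used a common spread for all genes and changed few of them, unlike these data. The FGF genes, lists and tests were chosen with earlier results of these data known. Named genes are the 10 FGF genes, up to 4 passing genes per list with the lowest p, and the 5 genes most like the called FGF gene with the largest rise and fall; Fgf12, Fgf18, Fgfr4, Kl, Mapk3, Frs2, Etv5, Pparg, Acta1, Ucp1, Pdgfra and overlapping genes were named for their role. A few genes that this rule names are not reported here. Exon overlaps are from GENCODE M21. No sample was left out, and the alternatives are given in the closing section. Figures were drawn with matplotlib 3.10.9.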

Additional observations from a re-analysis of the deposited data

Results flagged for a closer look

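Of 20 groups of 4 libraries (10 FGF genes in 2 genotypes), 2 held a library whose gap to the nearest other was too large a part of the group's whole range by Dixon's test at the 95% level; chance flags about 1 in 20 groups. Fgf21 in TG 2 stood at 0.596 FPKM (12 reads), above the other TG libraries at 0 to 0.0882 FPKM. Fgfr3 in TG 3 stood at 0.0550 FPKM (9 reads), below the other TG libraries at 0.106 to 0.116 FPKM. Both values rest on few reads.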

How the results depend on the processing

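Fgf1, Fgf10 and Fgfr1 kept their direction and their call under all 20 alternative fits, and Fgfr2 and Fgf13 under the 19 in which they were tested. Main counts were 2788 genes higher and 2725 lower, and 4 FGF genes higher and 1 lower. Division by all recovered reads, which moved the median log2 change of all genes to 0.32, gave 5536 higher and 1442 lower genes, so that 79.3% of calls were higher against 50.6% in the main fit, and 7 FGF genes higher; Fgf2 (0.79), Fgf7 (0.53) and Klb (0.73) were called there, with changes to be read against that shift. A filter of 1 FPKM in 4 libraries, which tests 5 FGF genes, gave 2 higher. A threshold of at least 2-fold, set on FPKM + 1, gave 641 higher and 973 lower genes and 2 FGF genes higher. Fgf13 and Fgfr2 missed it on that scale (log2 changes 0.58 and 0.75), while their ratios of mean FPKM were 2.88 and 5.34. An adjusted p of 0.01 gave 1796 higher genes. Leaving out each library gave 2278 to 2743 higher genes, 2291 to 2819 lower genes, 4 to 5 FGF genes higher and 1 to 1 lower. Nudt6, which did not pass, changed sign with division by all recovered reads (0.0995) and without WT 1 (0.0426), its values without 1 library each running from -0.349 to 0.0426; the cause was not tested. With a pseudocount of 0.1 the untested differences of Fgf21 and Fgfr3 were -0.792 and -0.892, against -0.263 and -0.253 with a pseudocount of 1.

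The replicate block gave 2389 higher and 2458 lower genes, and 4 FGF genes higher and 1 lower. Same-numbered TG and WT libraries correlated at -0.238 to 0.0373 in their deviations from the group means. These values cannot show whether same-numbered mice were related or handled together. Fgf21 and Fgfr3 had 0 to 50 reads per library.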

Other observations

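Of the 13 other FGF ligands below the filter, a few had values that separate the genotypes. They are named after their values were seen and were not tested in the comparison above. Over all tested genes 42.6% separated without overlap, and the share among genes below the filter was not computed. Fgf9 had 6, 3, 1 and 4 reads in TG 1, 2, 3 and 5, against 7, 10, 12 and 18 reads in WT 1, 2, 3 and 5, or 0.0329 ± 0.0185 FPKM in TG and 0.205 ± 0.0928 FPKM in WT (SD, n = 4 each). Fgf23, a hormone of bone that regulates phosphate, had 3, 5, 8 and 1 reads in TG 1, 2, 3 and 5 and 0 reads in the WT libraries, at least 3.13-fold higher in TG than the level of 3 reads over the WT group. Fgf16, known from brown fat and heart, had 7, 0, 7 and 0 reads in TG 1, 2, 3 and 5, against 9, 15, 5 and 6 reads in WT 1, 2, 3 and 5, and its FPKM in WT stood above those in TG in all libraries.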
